A study of Homo sapiens with 12 samples.

Results

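The let-7 family is a set of small regulatory RNA with a shared seed, and its level was followed here in extracellular vesicles (EV) along the differentiation of human stem cells into cardiomyocytes. The members were the 5p arms of let-7a, let-7b, let-7c, let-7d, let-7e, let-7f, let-7g, let-7i and miR-98, taken by name from the deposited miRNA count table. All 9 had an entry among the 1133 miRNA of that table. The files list them with the prefix hsa and the suffix 5p, which are left out below.

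Small RNA was sequenced from EV that were separated from conditioned medium on a density gradient. All cells came from 1 established human induced pluripotent stem cell line, IMR90-4, so the values describe a single genetic background. The 4 EV groups had 3 libraries each, from 3 independent cultures, and made 12 libraries in all. Medium of undifferentiated cells in expansion medium was collected at day 0 after 24 h of conditioning (hiPSC-EV). Medium of cardiac progenitor cells in insulin-free differentiation medium with the compound IWR-1 was collected at day 6 after 72 h (CPC-EV). Immature cardiomyocytes, kept as aggregates in maintenance medium, gave CMi-EV at day 15 after 48 h. More mature cardiomyocytes, kept as aggregates in a glucose-depleted medium with galactose and fatty acids, gave CMm-EV at day 35 after 48 h. Stage and medium changed together at every step, so their effects cannot be told apart. Conditioning time also changed at the first 2 steps, while CMi-EV and CMm-EV had the same conditioning time and both came from aggregates. The cells of hiPSC-EV and CPC-EV were grown as monolayers, so culture format changed as well from CPC-EV to CMi-EV.

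As background, let-7 miRNA repress messenger RNA with matching sites, among them transcripts that keep cells in a fetal or proliferating state. In pluripotent cells the RNA-binding protein LIN28A attaches to let-7 precursors and blocks their maturation, and LIN28A is itself a let-7 target. Mature let-7 is known to accumulate as cells differentiate, also in the maturing heart muscle cell.

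The mature sequences are shown because the members differ by few bases, which bears on how reads could be told apart. They were read from the RefSeq miRNA table for GRCh38.p14, in which 9 of 9 members were matched by name, and the capitals mark the seed, bases 2 to 8 from the 5′ end.
hsa-let-7a-5p: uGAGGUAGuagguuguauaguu
hsa-let-7b-5p: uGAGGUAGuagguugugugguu
hsa-let-7c-5p: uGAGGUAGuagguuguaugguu
hsa-let-7d-5p: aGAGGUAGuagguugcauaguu
hsa-let-7e-5p: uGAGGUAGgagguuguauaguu
hsa-let-7f-5p: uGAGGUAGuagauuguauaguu
hsa-let-7g-5p: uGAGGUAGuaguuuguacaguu
hsa-let-7i-5p: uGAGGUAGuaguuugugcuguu
hsa-miR-98-5p: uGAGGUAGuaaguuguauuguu
All 9 had the seed GAGGUAG and a length of 22 bases, so counts of members could be set side by side without a correction for length. Relative to let-7a, and with positions counted from 1 at the 5′ end, let-7c carried A19G, let-7e carried U9G and let-7f carried G12A. The other differences from let-7a were A17G and A19G in let-7b, U1A and U16C in let-7d, G12U and U18C in let-7g, and G11A and A19U in miR-98. The most distant from let-7a was let-7i with G12U, A17G, U18C and A19U. Of the 36 pairs of members, 4 were 1 base apart, and the widest pair differed by 6 bases. The same seed was found in 2 other human miRNA of the RefSeq table, miR-4458 and miR-4500, and neither had an entry in the count table.

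The 9 members derive from 12 hairpin genes, since let-7a has 3 and let-7f has 2. In GENCODE v44 on hg38, MIRLET7A1, MIRLET7F1 and MIRLET7D lie on chromosome 9 within the same host transcript, with 310 bases between the first pair and 2400 bases between MIRLET7F1 and MIRLET7D. MIRLET7C lies on chromosome 21 in MIR99AHG, 658 bases from MIR99A. MIRLET7E lies on chromosome 19 in SPACA6, 104 bases from MIR99B and 389 bases from MIR125A. MIRLET7A2 lies on chromosome 11 in an intron of MIR100HG, 5635 bases from MIR100. MIRLET7A3 and MIRLET7B are 863 bases apart on chromosome 22, and MIRLET7F2 and MIR98 are 850 bases apart on chromosome X in an intron of HUWE1. MIRLET7G lies on chromosome 3 in an intron of WDR82, and MIRLET7I lies on chromosome 12.

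LIN28A recognizes the motif GGAG in the loop of let-7 precursors. A search of the strand of each hairpin for GGAG after the 5p arm gave a match in 9 of the 12 hairpins. The hairpins of let-7a-3, let-7b and miR-98 had none. Of 1089 human hairpins of 72 to 119 bases, 43.1% held GGAG anywhere, and by that wider search the let-7 count was also 9 of 12. The last 20 bases of the loop, before the 3p arm, are shown for hairpins of let-7e, let-7c and let-7a, the 3 members with the largest shares in the cardiomyocyte groups, and for MIRLET7B as a hairpin without a match, with the motif in capitals.
MIRLET7E: gaggacacccaaGGAGauca
MIRLET7C: aguuacacccugGGAGuuaa
MIRLET7A1: cacccaccacugGGAGauaa
MIRLET7B: uguugccccucggaagauaa
A match in letters is a description of the sequence, and binding was not measured here.

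The depth that all miRNA values rest on is the number of miRNA counts per library. It was 703415, 2511807 and 5598291 in hiPSC-EV 1, 2 and 3, and 1680153, 3380608 and 1539043 in CPC-EV 1, 2 and 3. It was 2163510, 1686607 and 1364735 in CMi-EV 1, 2 and 3, and 984865, 6272455 and 5072948 in CMm-EV 1, 2 and 3. Levels are given as miRNA counts scaled to a common total (CPM), normalized by the trimmed mean of M-values (TMM) over the 12 libraries. A count of 0 allows a level of up to 3 counts, which corresponded to 0.640 CPM in hiPSC-EV 3 and to 3.64 CPM in CMm-EV 1. Such limits, and the intervals given below, cover counting error only. A CPM value is a share of the miRNA in a library, so a lower level can reflect more of other miRNA. Fewer cells of a type cannot be told apart from less RNA per cell. RNA of the cells was not measured, so a change in the cells cannot be told apart from a change in what enters the EV. Reads that match several miRNA are divided among them in the deposited table, and 23.9% of the non-zero values of the members were not whole numbers, against 9.11% over all miRNA.

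The stage labels were compared with markers in the same libraries. The 6 miRNA that mark pluripotent cells, all with an entry, summed to 172530.0 to 211728 CPM in hiPSC-EV, 49478 to 79571 CPM in the CPC-EV libraries, 4080.1 to 6799.7 CPM in CMi-EV and 110.0 to 305 CPM in the CMm-EV libraries. Their most abundant member was miR-302b-3p in each group, and miR-367-3p had 0 CPM in all CMm-EV libraries. The 5 cardiomyocyte miRNA, all with an entry, summed to 44.1 to 68.0 CPM, 756 to 1519 CPM, 20749 to 75565 CPM and 37725 to 208254 CPM in the same order, and miR-1-3p was the most abundant. MiR-208b-3p had 0 CPM in all hiPSC-EV and CPC-EV libraries. CMm-EV 3 alone gave the 208254 CPM, and the other 2 libraries of that group had 37725 and 51354 CPM. The pluripotency sum was thus highest in hiPSC-EV and the cardiomyocyte sum in the 2 cardiomyocyte groups, as the labels state. In hiPSC-EV, miR-302b-3p alone made up 178903 of the mean sum of 187747 CPM. MiR-302b-3p, miR-302c-3p and miR-367-3p did not overlap between hiPSC-EV and CPC-EV, while miR-302a-3p, miR-302d-3p and miR-371a-5p did. The means of miR-371a-5p were 1118 and 1108 CPM in these groups.

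The summed level of the 9 members was 1238, 1789 and 2547 CPM in the hiPSC-EV libraries and 341, 377 and 387 CPM in CPC-EV. It was 795, 756 and 793 CPM in CMi-EV and 16474, 15732 and 23016 CPM in CMm-EV. No library of any group reached into the range of another group. From the lowest mean to the highest, the order was CPC-EV (368 ± 23.7 CPM, SD, n = 3), CMi-EV (781 ± 22.3), hiPSC-EV (1858 ± 657) and CMm-EV (18407 ± 4009). The sum was described and not tested. The same order of groups was found with library size only and with the RPM of the authors, although the ratio of CMm-EV to CMi-EV was 23.6 with TMM and 14.0 with library size only. As a share of all miRNA counts, the family made up 0.181% ± 0.0310 in hiPSC-EV, 0.0552% ± 0.0115 in the CPC-EV libraries, 0.0830% ± 0.00256 in CMi-EV and 1.16% ± 0.216 in the CMm-EV libraries.

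Within the family, the leading member was let-7a in the 2 earlier groups and let-7e in the 2 later groups. Shares of the summed counts do not depend on the scaling between libraries. The share of let-7a was 90.1% ± 1.64 (SD, n = 3) in hiPSC-EV, 66.6% ± 5.14 in the CPC-EV libraries, 17.7% ± 4.76 in CMi-EV and 24.7% ± 2.76 in the CMm-EV libraries. The share of let-7e was 0.825% ± 0.738, 10.9% ± 6.29, 61.5% ± 12.6 and 53.3% ± 5.78 in the same order. The lowest share of let-7a in the earlier groups, 61.3%, lay above its highest in the later groups, 27.9%. For let-7e, the highest share in the earlier groups was 18.2% and the lowest in the later groups was 46.6%.
The share of let-7c was 0.00558% ± 0.00966 in hiPSC-EV, 0.0321% ± 0.0555 in the CPC-EV libraries, 8.36% ± 4.46 in CMi-EV and 13.4% ± 3.94 in the CMm-EV libraries. For let-7f it was 5.63% ± 1.57, 17.0% ± 2.64, 6.51% ± 4.14 and 6.21% ± 0.771. Together, let-7a, let-7e and let-7c held 90.9% of the family in hiPSC-EV, 77.5% in the CPC-EV libraries, 87.6% in CMi-EV and 91.4% in the CMm-EV libraries. CMi-EV and CMm-EV overlapped in the shares of let-7e and let-7c. The share of let-7a did not overlap between them, with 12.3% to 21.3% in CMi-EV and 23.04% to 27.9% in CMm-EV. How efficiently each sequence enters a library was not measured, so shares between members carry that limit.

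**Figure D1:**
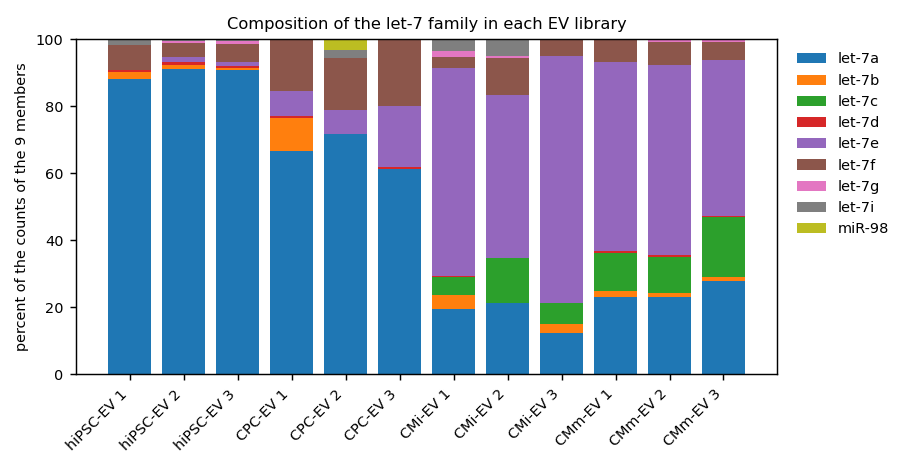
Percent of the counts of the 9 members that each member held, as stacked bars, in each of the 12 EV libraries. The share of let-7a was at least 61.3% in all hiPSC-EV and CPC-EV libraries, and that of let-7e was at least 46.6% in all CMi-EV and CMm-EV libraries.

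Member by member, let-7a, with 3 hairpin genes, stood at 1091, 1629 and 2317 CPM in hiPSC-EV and at 228, 269.8 and 237 CPM in CPC-EV. It stood at 156, 161 and 97.8 CPM in CMi-EV and at 3796, 3644 and 6416 CPM in CMm-EV. The 4 groups did not overlap, with the lowest values in CMi-EV and the highest in CMm-EV. Pairs of groups were compared with edgeR quasi-likelihood tests. A member counted as called when its false discovery rate (FDR, Benjamini-Hochberg over all miRNA tested) was 0.05 or less and its log2 fold change was 1 or more in size. Let-7a fell by 2.34 ± 0.28 (SE) on the log2 scale from hiPSC-EV to CPC-EV (edgeR FDR 0.00102) and rose by 4.91 ± 0.37 from CMi-EV to CMm-EV (edgeR FDR 1.89e-04). Between CPC-EV and CMi-EV its log2 fold change was -0.82 ± 0.36, which was not called (edgeR FDR 0.153), although with library size only it was -1.29 and called (FDR 0.0372, in a range of 0.0285 to 0.356 over the 13 alternatives). From hiPSC-EV to CMm-EV the log2 fold change was 1.12 ± 0.42 with an edgeR FDR of 0.0559, so the outer stages were not called different in the planned fit. That comparison was called in 8 of the 13 alternatives, where the FDR ran from 1.32e-04 to 0.149, and also with the replicate block (1.18, FDR 0.0395).

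Let-7e, which shares a transcript with miR-99b and miR-125a, had 0, 25.4 and 26.9 CPM in hiPSC-EV and 25.7, 26.5 and 70.3 CPM in CPC-EV. It had 494, 366 and 585 CPM in CMi-EV and 9327, 8916 and 10733 CPM in CMm-EV. The 2 earlier groups overlapped, and every later library was above every earlier one. Let-7e rose by 3.54 ± 0.53 on the log2 scale from CPC-EV to CMi-EV (edgeR FDR 0.00294) and by 4.16 ± 0.24 from CMi-EV to CMm-EV (edgeR FDR 5.45e-05). With 1 library left out, the earlier of these values ran from 3.32 to 4.16, the highest without CPC-EV 3. Between hiPSC-EV and CPC-EV the difference was 1.72 ± 1.32 and was not called (edgeR FDR 0.395). That difference was 1.00 without CPC-EV 3 and 2.18 without hiPSC-EV 3. Over the whole course, from hiPSC-EV to CMm-EV, let-7e rose by 8.68 ± 1.23 (edgeR FDR 0.00116).

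Let-7c, which shares a transcript with miR-99a, was near its floor in the earlier groups, with 0, 0 and 0.426 CPM in hiPSC-EV and 0, 0 and 0.372 CPM in CPC-EV. After rounding, these levels rest on 2 counts and 1 count over each group. It had 42.8, 102 and 49.3 CPM in CMi-EV and 1885, 1691 and 4117 CPM in CMm-EV. The earlier groups could not be told apart at this depth, and the later groups did not overlap with each other or with the earlier ones. The ratio of CMi-EV to CPC-EV was 603, with an exact 95% counting interval of 108 to 23888, and the change was called (edgeR FDR 0.00469). Without CPC-EV 3, which holds the count, CPC-EV had none, so the ratio has no upper limit that these data could set. Let-7c then rose by 5.16 ± 0.57 on the log2 scale from CMi-EV to CMm-EV (edgeR FDR 0.00103). The ratio of CMm-EV to hiPSC-EV was 10392, with an interval of 2876 to 85818 (edgeR FDR 6.40e-05), and both counts of hiPSC-EV were in hiPSC-EV 3. In hiPSC-EV, 2 counts of let-7c stood beside 15908 counts of let-7a, from which it differs by A19G alone.

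Let-7f, with 2 hairpin genes, had 90.6, 75.5 and 136 CPM in hiPSC-EV, 52.2, 58.8 and 77.3 CPM in CPC-EV and 26.5, 84.5 and 39.8 CPM in CMi-EV. It had 1058, 1078 and 1232 CPM in CMm-EV. The first 3 groups overlapped, and only the CMm-EV libraries stood apart. Let-7f rose by 4.32 ± 0.50 on the log2 scale from CMi-EV to CMm-EV (edgeR FDR 0.00114) and by 3.16 ± 0.42 from hiPSC-EV to CMm-EV (edgeR FDR 8.71e-04). The value from CMi-EV to CMm-EV ran from 4.12 to 4.93 with 1 library left out, the highest without CMi-EV 2. None of the 3 pairs among the first 3 groups was called, with edgeR FDR of 0.758, 0.765 and 0.433.

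Let-7d, a neighbour of let-7a and let-7f on chromosome 9, had 6.97, 20.7 and 14.9 CPM in hiPSC-EV and 1.92, 0.992 and 1.49 CPM in CPC-EV. It had 1.76, 1.05 and 0.724 CPM in CMi-EV and 75.3, 82.2 and 51.3 CPM in CMm-EV. CPC-EV and CMi-EV overlapped at the lowest level, hiPSC-EV stood between, and CMm-EV was the highest. The levels in CPC-EV and CMi-EV rest on 13 and 7 counts over each group. Let-7d rose by 5.61 ± 0.89 on the log2 scale from CMi-EV to CMm-EV (edgeR FDR 0.00651), a call that was lost with the replicate block (5.69, FDR 0.0811). From hiPSC-EV to CPC-EV the log2 fold change was -2.79 ± 0.92 and was not called (edgeR FDR 0.0556). That comparison was called with median-of-ratios scaling (FDR 0.0484), with DESeq2 (0.0358) and without hiPSC-EV 1 (0.0412), and over all 13 alternatives the FDR ran from 0.0358 to 0.469. From hiPSC-EV to CMi-EV it fell by 3.30 ± 0.81 (edgeR FDR 0.0128), a call that was lost without hiPSC-EV 2, where the log2 fold change was -2.90 and the FDR 0.0712, and with filterByExpr (FDR 0.0595) and with no filter (0.393). Its FDR over the 13 alternatives ran from 0.0107 to 0.393, and with the replicate block, counted apart from these, it was 0.397. The log2 fold change was -4.00 without CMi-EV 1, the largest fall with 1 library left out.

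Let-7b had 26.7, 21.5 and 13.6 CPM in hiPSC-EV, 33.8, 0 and 0 CPM in CPC-EV and 33.1, 0 and 21.01 CPM in CMi-EV. In CMm-EV it had 296, 187 and 281 CPM, above every other library. The 0 values, in 2 libraries of CPC-EV and 1 of CMi-EV, stood beside values of about the hiPSC-EV level in the same groups. Let-7b rose by 3.36 ± 0.53 on the log2 scale from hiPSC-EV to CMm-EV (edgeR FDR 0.00173), and this call was lost when the spread was taken from all 12 libraries (FDR 0.137). Its FDR over the 13 alternatives ran from 2.58e-13 to 0.137. The step from CMi-EV to CMm-EV had a log2 fold change of 3.64 ± 1.42 and was not called (edgeR FDR 0.148). That comparison was called without CMi-EV 2, the library at 0 (3.03, FDR 0.0397), with no filter (FDR 2.83e-04) and with DESeq2 (0.00763), and over the 13 alternatives the FDR reached 0.252. Without CMi-EV 1 the log2 fold change was 4.56. From hiPSC-EV to CPC-EV, where edgeR gave -0.42 ± 1.96 and no call, the comparison was called without CPC-EV 1, the only library of that group with a count (FDR 0.0158, in a range up to 0.976). From CPC-EV to CMm-EV let-7b was not called (edgeR FDR 0.140), while it was called without CPC-EV 1 (FDR 0.00237) and with no filter (FDR 0.00835), in a range up to 0.231 over the 13 alternatives.

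Let-7g had 2.32, 6.36 and 23.7 CPM in hiPSC-EV, 0 CPM in all 3 CPC-EV libraries, 14.1, 3.68 and 0 CPM in CMi-EV and 36.4, 107 and 175 CPM in CMm-EV. The CMm-EV libraries were above all others, and hiPSC-EV and CMi-EV overlapped. Over the group, let-7g was at least 383-fold higher in CMm-EV than in CPC-EV, taking 3 counts for the 0 in CPC-EV, and the change was called (edgeR FDR 0.00487), a call that was lost with the replicate block (FDR 0.0542) and kept in the 13 alternatives counted apart from it, where the FDR was 0.0151 at most. Between hiPSC-EV, with 129 counts, and CPC-EV, with 0, it did not pass the filter of the planned fit and was not tested there. Of the 129 counts, 111 were in hiPSC-EV 3. Without hiPSC-EV 1, the remaining hiPSC-EV libraries, at 6.36 and 23.7 CPM, met the filter. Let-7g was then called lower in CPC-EV together with let-7a and let-7d, which made 3 members called in that fit. The step from CMi-EV to CMm-EV had a log2 fold change of 3.98 ± 1.47 and was not called (edgeR FDR 0.130), with calls by no filter (FDR 0.0437) and DESeq2 (FDR 0.00979) in a range up to 0.333 over the 13 alternatives. With 1 library left out the log2 fold change ran from 3.33 without CMi-EV 3 to 5.69 without CMi-EV 1. From hiPSC-EV to CMm-EV it was 2.87 ± 1.07 and was not called either (edgeR FDR 0.0559), with calls in 6 of the 13 alternatives. These were the fits without hiPSC-EV 3 (4.25, FDR 0.0279) and without CMm-EV 1 (3.71, FDR 0.0145), and those with median-of-ratios scaling (FDR 0.0282), library size only (0.0453), no filter (0.0322) and DESeq2 (0.00100), in a range of 0.00100 to 0.166 over the 13 alternatives.

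Let-7i had 19.7, 7.95 and 12.6 CPM in hiPSC-EV, 0, 9.17 and 0 CPM in the CPC-EV libraries, 26.01, 37.3 and 0 CPM in CMi-EV and 1.21, 12.7 and 10.6 CPM in the CMm-EV libraries. All pairs of groups overlapped. No pair was called in the planned fits, and from hiPSC-EV to CMm-EV the log2 fold change was -0.94 ± 0.93 (edgeR FDR 0.426). That value ran from -1.20 without hiPSC-EV 2 to -0.257 without CMm-EV 1. Without CPC-EV 2, the only library of that group with a count, let-7i was called lower in CPC-EV relative to hiPSC-EV (edgeR FDR 0.0184, in a range up to 0.729 over the 13 alternatives). The last member, miR-98, had 0, 2.78 and 1.49 CPM in hiPSC-EV, 0, 11.4 and 0 CPM in the CPC-EV libraries, 0.441, 0 and 0 CPM in CMi-EV and 0, 14.1 and 0.394 CPM in the CMm-EV libraries. It passed no filter in any pair and was not tested, and its groups overlapped.

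**Figure D2:**
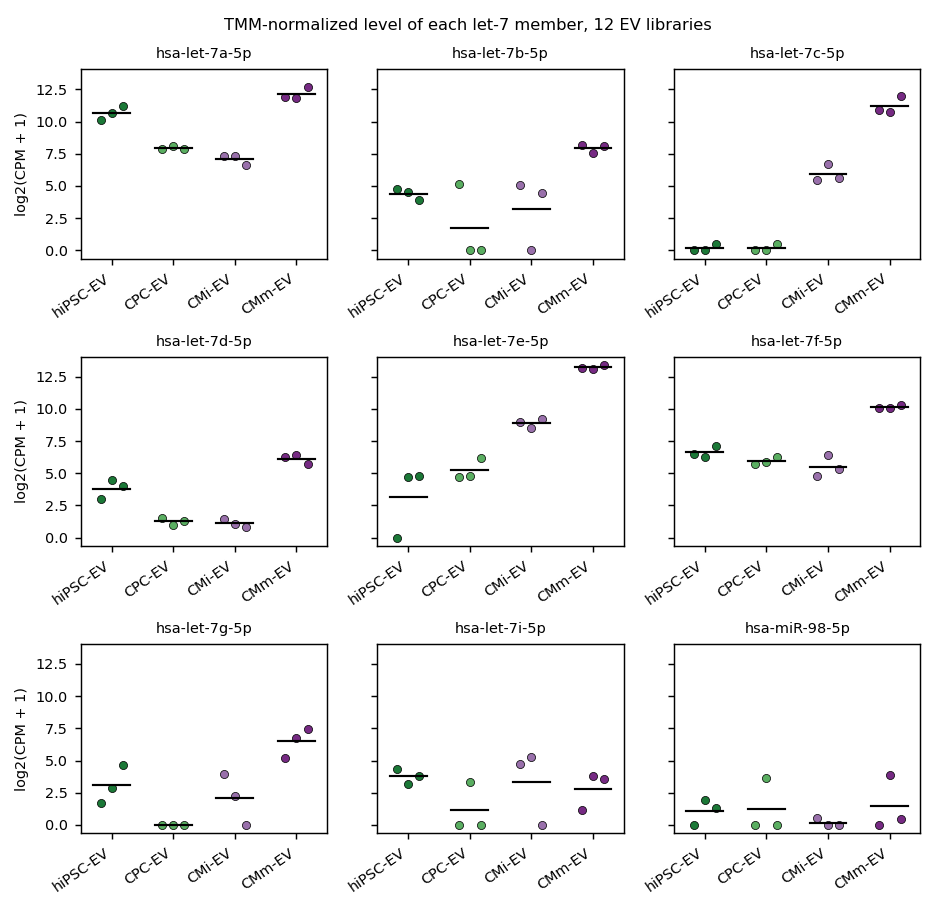
TMM-normalized level of each of the 9 members as log2(CPM + 1), with 1 point per library and a bar at the mean of the 3 points of each EV group. Let-7a, let-7b, let-7c, let-7d, let-7e, let-7f and let-7g were highest in the 3 CMm-EV libraries, and let-7i and miR-98 overlapped between groups.

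Over the 4 groups at once, the F-test of edgeR called 6 of the 8 members that it tested, and it called 50.7% of the 367 miRNA tested. The 6 were let-7a, let-7c, let-7d, let-7e, let-7f and let-7g, with FDR between 2.38e-07 for let-7c and 0.0108 for let-7g. Not called were let-7b (edgeR FDR 0.129) and let-7i (edgeR FDR 0.698). A member that passes the filter through a single high group is likely to differ, so the counts below describe the members and carry no test of the family.

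Early differentiation, from hiPSC-EV to CPC-EV, asks what vesicles lose on leaving pluripotency. Of the 6 members tested, 1 was called lower, let-7a, while 16.0% of all miRNA tested were called lower, 11.5% higher and 27.5% in either direction. By unadjusted p under 0.05, 2 members were lower and 0 were higher, and DESeq2 called 2 lower and 0 higher. The median log2 fold change of the tested members was -1.13, against -0.27 over all 338 miRNA tested. Cardiac differentiation, from CPC-EV to CMi-EV, had 4 members tested and 2 called higher, let-7c and let-7e, where 14.4% of all 292 miRNA tested were called higher, 14.0% lower and 28.4% in either direction. For the 0 members called lower by edgeR, the count was also 0 by unadjusted p under 0.05 and by DESeq2. The medians were 1.60 for the members and -0.05 for all tested.
Maturation, from CMi-EV to CMm-EV, had 7 members tested and 5 called higher, where 6.48% of all 247 miRNA tested were called higher, 10.1% lower and 16.6% in either direction. The 5 were let-7a, let-7c, let-7d, let-7e and let-7f, and these made up 5 of the 16 miRNA called higher in that comparison. With the replicate block, 4 members were called. The median log2 fold change was 4.32 for the members and -0.30 for all tested. Unadjusted p was under 0.05 for all 7 of the tested members, DESeq2 called all 7 higher, and 0 were lower by edgeR, by unadjusted p or by DESeq2. Without regard to the filter, 7 of the 9 members were higher in every CMm-EV library than in any CMi-EV library, which held for 20.6% of all miRNA tested.

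The other 3 pairs share libraries with these and serve to order the groups. From hiPSC-EV to CMi-EV, 7 members were tested, with 2 called higher (let-7c and let-7e, beside 15.7% of all tested) and 2 called lower (let-7a and let-7d, beside 25.7%, with 41.4% in either direction). The median of the members was 0.02, against -0.55 for all tested. From CPC-EV to CMm-EV, 6 of 7 tested were called higher, beside 21.2% of all tested (23.6% lower, 44.9% in either direction), and the median was 5.52 against -0.44 for all tested. From hiPSC-EV to CMm-EV, 4 of 8 tested were called higher, beside 16.1% of all tested (37.5% lower, 53.6% in either direction), namely let-7b, let-7c, let-7e and let-7f. The median was 3.02 for the members and -1.53 for all 336 miRNA tested. DESeq2 and median-of-ratios scaling called 7 of the 8, adding let-7a, let-7d and let-7g, whose edgeR FDR in the planned fit lay between 0.0555 and 0.0559.

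The scaling bears on all of these directions. Relative to TMM, library size only moved the median log2 fold change of all miRNA by 0.15 from hiPSC-EV to CPC-EV, -0.46 from CPC-EV to CMi-EV and -0.58 from CMi-EV to CMm-EV. It moved it by -0.12 from hiPSC-EV to CMi-EV, -1.24 from CPC-EV to CMm-EV and -0.36 from hiPSC-EV to CMm-EV. Median-of-ratios scaling moved it by 0.30 at most. The shares of all miRNA called also depend on the scaling. With library size only, 10 instead of 16 of the 247 miRNA were called higher from CMi-EV to CMm-EV, and 34 instead of 62 of the 292 from CPC-EV to CMm-EV, while 5 and 6 members were called higher as before. Of the 22 member changes called in the planned fits, 0 changed sign under any alternative, and the increases of called members from CMi-EV to CMm-EV, of 4.16 to 5.61 on the log2 scale, were several times the shift of -0.58 there.

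**Figure D3:**
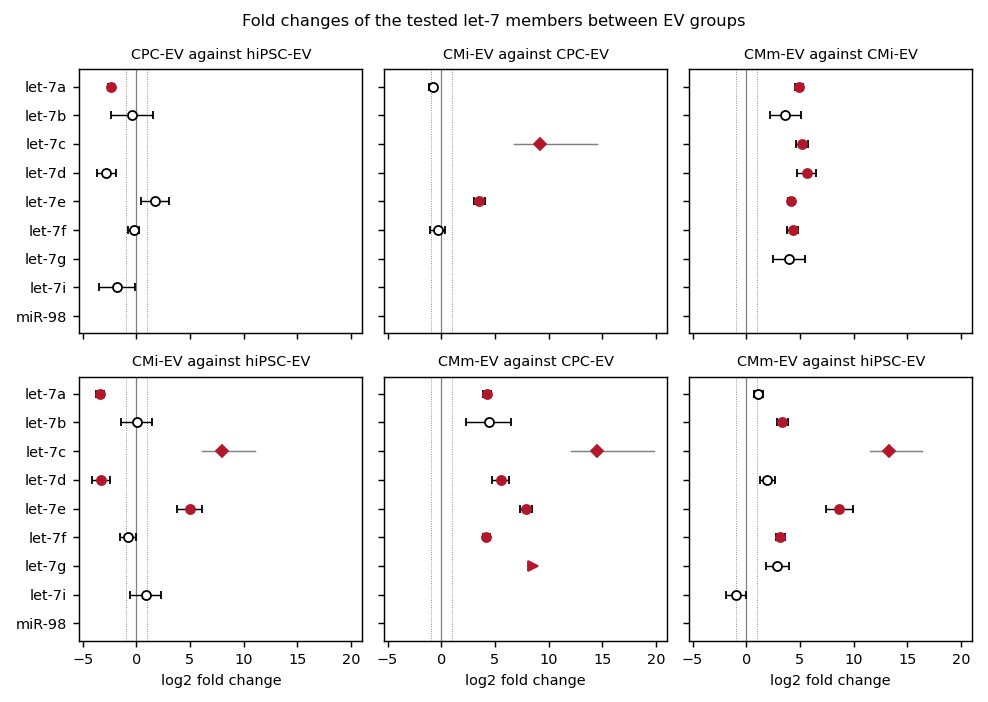
Log2 fold change of each tested member in the 6 pairs of EV groups, with filled red symbols for called and open symbols for not called, and dotted lines at a log2 fold change of -1 and 1. Circles are fitted values with their SE, diamonds are count ratios with exact 95% intervals where a group had 1 to 3 counts, and the triangle is a lower bound where a group had none. In the panel of CMi-EV and CMm-EV, 5 of the 7 members tested were called, all between 4.16 and 5.61.

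Several members are cut from primary transcripts that also carry miR-99, miR-100 or miR-125 miRNA, and these partners were compared in the same libraries. MiR-99a, the partner of let-7c, had 29.03, 37.4 and 39.4 CPM in hiPSC-EV and 895, 611 and 2237 CPM in CPC-EV. It had 44782, 34506 and 31669 CPM in CMi-EV and 39541, 50290.3 and 54063 CPM in CMm-EV. MiR-99a thus stood clear of hiPSC-EV already in CPC-EV and overlapped between the 2 cardiomyocyte groups. It rose by 5.61 ± 0.61 on the log2 scale from hiPSC-EV to CPC-EV (edgeR FDR 6.89e-04) and by 4.88 ± 0.58 from CPC-EV to CMi-EV (edgeR FDR 0.00114). From CMi-EV to CMm-EV, where let-7c rose by 5.16, the difference of miR-99a was 0.22 ± 0.23 and was not called (edgeR FDR 0.551).

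For the transcript of let-7e, miR-99b differed by 0.67 ± 0.38 from CMi-EV to CMm-EV (edgeR FDR 0.301, not called) and miR-125a rose by 1.70 ± 0.27 (edgeR FDR 0.00645), where let-7e rose by 4.16. For the transcript of let-7a-2, miR-100 rose by 6.75 ± 0.40 from CPC-EV to CMi-EV (edgeR FDR 1.98e-04), where let-7a was not called, and differed by 0.80 ± 0.34 from CMi-EV to CMm-EV (edgeR FDR 0.178, not called), where let-7a rose by 4.91. MiR-125b, which has a hairpin in each of the transcripts of let-7c and let-7a-2, rose by 5.42 ± 0.44 from CPC-EV to CMi-EV (edgeR FDR 3.05e-04) and differed by 0.42 ± 0.23 from CMi-EV to CMm-EV (edgeR FDR 0.288, not called).

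Ratios of counts within a library do not depend on the scaling between libraries, and were chosen as a measure after the values were seen. They are described without a test result, since an exact permutation of 3 against 3 libraries cannot give a p below 0.1 and gave that value in every pair computed. Per 1000 counts of miR-99a, let-7c had 1.82 ± 1.02 counts (SD, n = 3) in CMi-EV and 52.5 ± 21.7 in CMm-EV. Per 1000 counts of miR-125a, let-7e had 1.70 ± 0.693 in the CPC-EV libraries, 8.20 ± 1.54 in CMi-EV and 46.8 ± 9.32 in the CMm-EV libraries. The ranges of these groups did not overlap in either ratio. In hiPSC-EV, let-7e had 2.37 ± 2.06 per 1000 counts of miR-125a and 0.861 ± 0.760 per 1000 of miR-99b, and let-7c had 3.604 ± 6.24 per 1000 of miR-99a, above the mean of CMi-EV, on 2 counts of let-7c in 1 library.
Per 1000 counts of miR-99b, let-7e had 0.691 ± 0.365, 4.34 ± 0.910 and 55.7 ± 26.5 in CPC-EV, CMi-EV and CMm-EV. Per 1000 counts of miR-100, let-7a had 897 ± 239 in hiPSC-EV, 133 ± 42.1 in the CPC-EV libraries, 0.682 ± 0.294 in CMi-EV and 11.4 ± 3.17 in the CMm-EV libraries. From CMi-EV to CMm-EV the ratio of geometric means was 30.3 for let-7c to miR-99a, 12.2 for let-7e to miR-99b, 5.70 for let-7e to miR-125a and 17.3 for let-7a to miR-100. Since let-7a also comes from hairpins on chromosomes 9 and 22, its ratio to miR-100 does not isolate the transcript on chromosome 11.

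**Figure D4:**
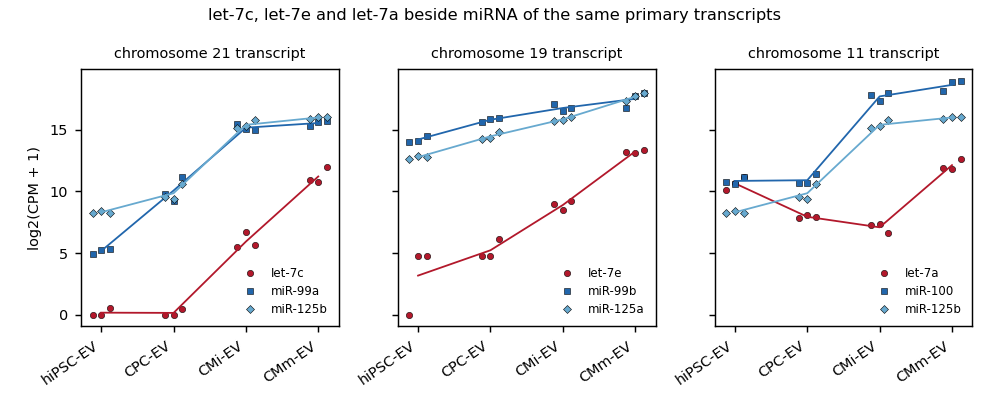
Level as log2(CPM + 1) of let-7c, let-7e and let-7a in red, beside miRNA whose hairpins lie in the same primary transcript in blue, with 1 point per library and lines through the group means. From CMi-EV to CMm-EV the red lines climbed by 4.16 to 5.16 in the fits, against 0.22 to 1.70 for the partners.

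The mature let-7 levels were set beside fragments of LIN28A in the gencode table, which holds reads on messenger and long noncoding RNA in the same libraries. These reads are fragments, and they carry no statement on intact messenger RNA or on protein. The totals in that table ran from 131183 to 1908089 counts, and 3 counts corresponded to 1.96 to 12.5 CPM. LIN28A had 219, 243 and 433 CPM in hiPSC-EV, 107, 282 and 452 CPM in CPC-EV, 93.8, 23.3 and 7.84 CPM in CMi-EV and 0 CPM in all 3 CMm-EV libraries. HiPSC-EV and CPC-EV overlapped, CMi-EV was below both, and CMm-EV had no count. Over the group, LIN28A was at least 85.2-fold lower in CMm-EV than in CPC-EV (edgeR FDR 0.00886) and at least 99.5-fold lower than in hiPSC-EV (edgeR FDR 0.00871), both called. Of all gencode entries tested, 48.3% were called lower, 5.97% higher and 54.3% in either direction from CPC-EV to CMm-EV, and 43.5%, 7.29% and 50.8% from hiPSC-EV to CMm-EV.
From hiPSC-EV to CPC-EV the log2 fold change of LIN28A was -0.14 ± 0.57 (edgeR FDR 0.900, not called), and its sign was the opposite with library size only (0.86). From CPC-EV to CMi-EV it was -2.64 ± 1.00 (edgeR FDR 0.0867, not called), and without CMi-EV 1 it was -4.05 and called (FDR 0.0388, in a range up to 0.234). From CMi-EV to CMm-EV LIN28A was at least 15.3-fold lower in counts and was not called (edgeR FDR 0.0566), with a call without CMi-EV 3 (FDR 0.0322, in a range up to 0.111). From hiPSC-EV to CMi-EV it was -2.65 ± 1.00 and not called (edgeR FDR 0.0732), with a call without CMi-EV 1 (-4.11, FDR 0.0247, in a range up to 0.227). From hiPSC-EV to CPC-EV the summed let-7 level was lower without overlap while LIN28A overlapped, and from CMi-EV to CMm-EV the sum was higher without overlap. LIN28A had no count in CMm-EV, but the 2 counts in CMi-EV 3 (7.84 CPM) lay below the 12.5 CPM that 3 counts make in CMm-EV 1, so a lower level was not shown for every library.

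**Figure D5:**
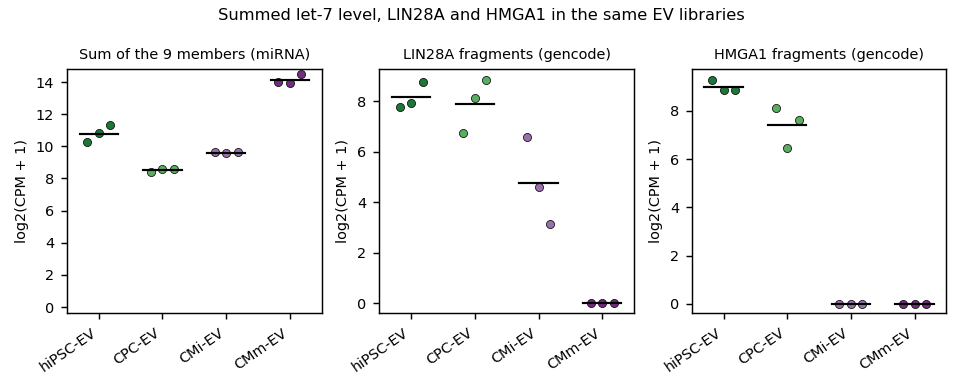
Summed level of the 9 members, and fragments of LIN28A and of the let-7 target HMGA1, as log2(CPM + 1) in their own RNA class, with 1 point per library and a bar at the group mean. The sum was highest in CMm-EV (15732 to 23016 CPM), where LIN28A and HMGA1 had no count. HMGA1 had no count in CMi-EV either, where the sum (756 to 795 CPM) lay below that of hiPSC-EV (1238 to 2547 CPM).

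The other genes of the pathway were counted in the same fits. Of 6 listed regulators of let-7 maturation (LIN28A, LIN28B, TUT4, TUT7, DIS3L2 and TRIM71), at most 2 passed the filter in a pair. TRIM71, a ubiquitin ligase and let-7 target, had 294 counts in hiPSC-EV, 399 in the CPC-EV libraries, 0 in CMi-EV and 157 in the CMm-EV libraries, and was called at least 47.6-fold lower in CMi-EV relative to CPC-EV (edgeR FDR 0.0223), where 27.5% of all gencode entries tested were called lower, 3.04% higher and 30.5% in either direction. In CMi-EV against hiPSC-EV it was called at least 73.1-fold lower (edgeR FDR 0.0135), where 28.9% were called lower, 4.27% higher and 33.1% in either direction. From CPC-EV and from hiPSC-EV to CMm-EV, TRIM71 was not called (0.06, edgeR FDR 0.972, and -0.18, edgeR FDR 0.930). The CMm-EV libraries differed widely, from 0 to 341 CPM, with a mean of 132 ± 183 CPM (SD, n = 3). LIN28B, the paralog of LIN28A, had 36, 124, 22 and 0 counts over the 4 groups in order of stage and was not tested.

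Of 13 listed let-7 targets, 9 were tested between hiPSC-EV and CPC-EV and 1 was called lower, CDC25A, beside 6.58% of all gencode entries called lower, 4.45% called higher and 11.0% in either direction. The median of the targets in that pair was -1.52, against 0.11 over all gencode entries tested. By unadjusted edgeR p under 0.05, 3 targets were lower. The target HMGA1, a chromatin protein, had 609, 469 and 459.7 CPM in hiPSC-EV and 274, 85.7 and 198 CPM in CPC-EV, and had no count in the 6 cardiomyocyte libraries. HiPSC-EV and CPC-EV did not overlap, and it was called at least 66.7-fold lower in CMi-EV relative to CPC-EV (edgeR FDR 0.0223), the only call among 6 targets tested, beside 27.5% of all gencode entries called lower. The median of the targets there was -0.89, against -1.44 over all gencode entries tested. From CMi-EV to CMm-EV, 0 targets passed the filter, so none could be tested. Of all gencode entries, 8.80% were called lower there, 3.41% higher and 12.2% in either direction. From CPC-EV to CMm-EV, 4 of 6 tested targets were called lower, and from hiPSC-EV to CMm-EV 7 of 9, beside 48.3% and 43.5% of all gencode entries called lower, with medians of -6.98 and -6.80 against -2.98 and -2.18 over all gencode entries tested. From hiPSC-EV to CMi-EV, 4 of 9 were called lower, beside 28.9% of all gencode entries, with a median of -1.94 against -1.22. The fitted values of genes with no count in a group depend on the prior count of the fit, so these medians are no bounds. No listed target was called higher by edgeR in any pair, and 0 had an unadjusted p under 0.05 in that direction. Not all targets ran like HMGA1. IGF2BP1 and CCND2 had 42 and 23 counts in CMm-EV and were not called in any pair tested. IGF2BP3 had a log2 fold change of 2.48 ± 1.67 from CPC-EV to CMi-EV (edgeR FDR 0.309, not called). TGFBR1 had 16, 24, 101 and 0 counts in order of stage.

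Of 9 listed genes of miRNA processing, at most 4 were tested in a pair, and calls were made in the comparisons with CMm-EV alone. From CPC-EV to CMm-EV, 3 of 4 were called lower (DROSHA, XPO5 and AGO2), and from hiPSC-EV to CMm-EV 2 of 2 (DROSHA and AGO2). These came beside the 48.3% and 43.5% of all gencode entries called lower. Of 8 listed host transcripts of let-7 hairpins, 3 had an entry and 2 were tested, MIR100HG and HUWE1. MIR100HG had 15, 34, 11 and 9 counts over the groups in order of stage, and its log2 fold changes ran from -0.27 to 0.26, with edgeR FDR of 0.695 or more. HUWE1 had log2 fold changes from -0.82 to 0.59 with edgeR FDR of 0.628 or more, so no host was called, and 0 had an unadjusted p under 0.05.

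The 3p arms of the same hairpins were nearly absent. Of 11 names of 3p arms, 4 had an entry in the count table, and together they had 221 counts in the 12 libraries against 156548 on the 9 members, or 0.141% of the counts on both arms. By group they had 61 counts in hiPSC-EV, 0 in the CPC-EV libraries, 0 in CMi-EV and 160 in the CMm-EV libraries. Each of the 4 had its counts in 1 library of a group, and no level is given for them.

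Of 359 expressed miRNA compared with the summed let-7 level over the 12 libraries, on log2(CPM + 1), the highest Pearson correlations were found for miR-508-3p (0.921), miR-378i (0.867), miR-504-5p (0.860), miR-378a-3p (0.854) and miR-181a-5p (0.846). Their Spearman coefficients were 0.881, 0.965, 0.790, 0.965 and 0.769. The libraries fall into 4 groups and share the stage within each, so the coefficients are a description without a test. MiR-378a-3p, a miRNA of muscle metabolism, had means of 3803 CPM in hiPSC-EV, 513 in the CPC-EV libraries, 1638 in CMi-EV and 5100.7 in the CMm-EV libraries, and so ran low in CPC-EV and high in CMm-EV like the sum. MiR-181a-5p had means of 140.0, 17.97, 484 and 6863 CPM in the same order. MiR-508-3p, with the highest coefficient, had means of 2.25, 0, 0 and 56.6 CPM, so its coefficient rests on low or absent counts outside CMm-EV.

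Markers of other cell types were read in the same libraries. Of 4 listed miRNA of smooth muscle and fibroblasts, 3 had an entry, and they summed to 237 to 477 CPM in hiPSC-EV, 2190.4 to 4448 in the CPC-EV libraries, 33386 to 60784 in CMi-EV and 132616 to 205109 in the CMm-EV libraries. MiR-143-3p carried the list, with 167055 of its mean of 167782 CPM in CMm-EV. The paper counts miR-143 and miR-145 among the myomiRs of cardiomyocytes, so this sum does not set other cell types apart from cardiomyocytes. MiR-214-3p had 0 CPM in all hiPSC-EV and CPC-EV libraries and means of 20.5 CPM in CMi-EV and 9.03 CPM in CMm-EV. The sum of the list was highest in CMm-EV, as the let-7 sum was, and its part in the result was not tested.
Of 2 listed endothelial miRNA, the arms of miR-126, 2 had an entry, with miR-126-3p the more abundant by mean, and they summed to 76.6 to 115 CPM in hiPSC-EV and 0 to 26.03 CPM in CMm-EV, with 49.1 to 94.1 and 55.1 to 71.0 CPM between. Of 6 listed blood miRNA, 4 had an entry, with sums of 5307 to 8684 CPM in hiPSC-EV, 857 to 1152 in the CPC-EV libraries, 728 to 2082 in CMi-EV and 771 to 875 in the CMm-EV libraries. Nearly all of that was miR-486-5p, which muscle also expresses, while miR-451a had 0 CPM in all CMi-EV libraries and at most 2.43 CPM in CMm-EV.
Among fragments in the gencode table, 6 pluripotency transcripts summed to 714 to 1168 CPM in hiPSC-EV, 170.3 to 487 in the CPC-EV libraries, 11.8 to 93.8 in CMi-EV and 3.97 to 42.7 in the CMm-EV libraries, with LIN28A the most abundant in hiPSC-EV, CPC-EV and CMi-EV by mean. The defining marker POU5F1 had 0 CPM in all cardiomyocyte libraries. NANOG had 0 counts in CPC-EV and CMi-EV but 17 in CMm-EV, up to 37.9 CPM, and was not called from hiPSC-EV to CMm-EV (-0.41, edgeR FDR 0.786). In CMm-EV, SOX2 had 2 counts and L1TD1 had 1. The 7 cardiomyocyte transcripts summed to 28.1 to 113 CPM, 1017 to 1566 CPM, 10899.5 to 13845 CPM and 8048 to 11360.4 CPM in order of stage, with TTN the most abundant. NPPA had 0 CPM in all groups other than CMm-EV, where 1 library held its 30 counts. The part of any of these lists in the result was not tested.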

How the data were processed

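Small RNA counts of 12 EV libraries were used. According to the paper, mapping and counting by the authors relied on exceRpt 4.6.2 (hg38, miRBase 21). The submitters' notes name edgeR 3.24.0 for their tests. The deposited tables hold expected counts per miRNA and per gencode gene, which were rounded to whole numbers here. The RPM deposited by the authors served as an alternative for summed levels and shares.

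Pairs of EV groups were tested with edgeR 4.0.16 in R 4.3.3 (quasi-likelihood, TMM within the 6 libraries) on features with at least 5 CPM in each library of at least 1 of the 2 groups. Calls needed an FDR of 0.05 or less over all features tested and a log2 fold change of 1 or more in size. An F-test compared the 4 groups. A group without counts was set to 3 counts, and ratios on 1 to 3 counts carry exact 95% intervals. Printed CPM use TMM over all 12 libraries. Gencode entries were fitted separately.

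Named were all members, their 3p arms, 5 transcript partners, miRNA with the same seed, a list of pathway genes, and the 5 expressed miRNA with the highest Pearson correlation to the summed level. Marker lists covered pluripotent cells, cardiomyocytes, blood, endothelium, and smooth muscle with fibroblasts. Members and lists were chosen with earlier results of these data known.

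Alternatives were median-of-ratios scaling, library size only, no filter, filterByExpr, DESeq2 1.42.0, spread from all 12 libraries, a replicate block, counts not rounded and each library left out. Tables and figures used matplotlib 3.10.9, pandas 2.3.3, scipy 1.17.1 and numpy 2.4.6 under Python 3.11.15. Hairpin positions came from GENCODE v44 and sequences from RefSeq. The fits were tested on simulated data. Tables of other RNA classes and the TMM tables of the authors were left out, since no value here needed them.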

Additional observations from a re-analysis of the deposited data

How the results depend on the processing

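Of 507 refits of the 39 member fold changes without the replicate block, 461 kept their direction and side of the threshold, 32 became called, 4 lost a call and 10 reversed. The 22 called changes kept their sign. The reversals concerned let-7b and let-7i, which were not called. From hiPSC-EV to CPC-EV, let-7b (-0.42) became 0.22 without CPC-EV 2 and 0.23 without CPC-EV 3, in a leave-one-out range of -8.77 to 0.23, whose lower end, without CPC-EV 1, rests on a group with no count and is no bound. From hiPSC-EV to CMi-EV, let-7b (0.02) became -0.22 with library size only, -0.17 with no filter, -0.00999 with filterByExpr and -0.12 with the spread of all 12 libraries. Leaving out CMi-EV 1 gave -1.25, leaving out CMi-EV 3 gave -0.43 and leaving out hiPSC-EV 3 gave -0.24, in a leave-one-out range of -1.25 to 0.29. In the same pair, let-7i (0.87) became -0.10 without CMi-EV 2, in a leave-one-out range of -0.10 to 1.33.

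From hiPSC-EV to CPC-EV, members called went from 1 to 2 with median-of-ratios scaling and with DESeq2, and ranged from 1 to 3 with 1 library left out (3 without hiPSC-EV 1, and 2 without CPC-EV 1 or without CPC-EV 2). From hiPSC-EV to CMm-EV they went from 4 to 7 with median-of-ratios scaling and with DESeq2, and ranged from 4 to 7 (7 without CMm-EV 1). The other leave-one-out ranges were 2 to 2 from CPC-EV to CMi-EV, 5 to 6 from CMi-EV to CMm-EV, 3 to 4 from hiPSC-EV to CMi-EV, 6 to 7 from CPC-EV to CMm-EV and 6 to 7 in the F-test. Counts not rounded, an alternative chosen after seeing the data, changed no member call in the 6 pairs and was not run for the F-test. The cause was not tested for any of these.

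For LIN28A from hiPSC-EV to CPC-EV (-0.14), the sign reversed with library size only (0.86), and left-out libraries gave -0.69 to 0.25 (0.25 without hiPSC-EV 3, 0.22 without CPC-EV 1). The ranges were -4.05 to -2.15 from CPC-EV to CMi-EV, -7.50 to -5.41 from CMi-EV to CMm-EV and -4.11 to -2.29 from hiPSC-EV to CMi-EV. Since CMm-EV had no count, the values from CMi-EV to CMm-EV depend on the prior count of the fit and are no bounds. The calls named in the report appeared when CMi-EV 1, or CMi-EV 3, was left out. The cause was not tested.

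The summed level moved by more than 1 SD with library size only in CPC-EV (552 CPM), CMi-EV (829.6 CPM) and CMm-EV (11579 CPM). With the RPM of the authors it was 980.2 in hiPSC-EV, 242 in the CPC-EV libraries, 501 in CMi-EV and 8686 in the CMm-EV libraries. With 1 library left out, also chosen after seeing the data, it stayed between 1513 and 2168 CPM in hiPSC-EV, 359 and 382 in CPC-EV, 774 and 794 in CMi-EV, and 16103 and 19745 in CMm-EV. No share within the family moved beyond 1 SD under the RPM.

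With the replicate number of the labels as a block in the fit, members called were 1, 2, 4, 3, 5 and 5 in the 6 pairs and 6 in the F-test, and calls were lost for let-7d from CMi-EV to CMm-EV (5.69, FDR 0.0811) and from hiPSC-EV to CMi-EV (-3.27, FDR 0.397) and for let-7g from CPC-EV to CMm-EV (FDR 0.0542). A call was gained for let-7a from hiPSC-EV to CMm-EV (1.18, FDR 0.0395). From hiPSC-EV to CMi-EV the block gave -0.81 for let-7b and -0.10 for let-7i, both reversed. Whether same-numbered libraries were handled together is not stated, and over 18 such pairs the correlation of residuals ran from -0.121 to 0.0989, so the fits without the block were kept.

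The limits are 3 libraries per group from 1 cell line, medium that changed with stage, and low counts. Conditioning time differed between groups other than CMi-EV and CMm-EV, and culture format changed from monolayers to aggregates between CPC-EV and CMi-EV. RNA of the cells was not measured. Let-7b, let-7e, let-7g, let-7i and miR-98 had libraries at 0 beside others of the same group with many counts. At most, in CMm-EV 1, 3 counts were 3.64 CPM for miRNA and 12.5 CPM for gencode fragments, so absence below these levels could not be shown. Members 1 base apart depend on the authors' read assignment, which could not be repeated from counts.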
